A study of Mus musculus with 6 samples.

Results

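The CELF and muscleblind genes encode RNA-binding proteins that choose splice sites. The 9 genes described here are Celf1 to Celf6 and Mbnl1 to Mbnl3, matched by symbol to Ensembl identifiers. All 9 were among the 52550 genes of the count table, and all 9 were among the 17621 genes with enough reads to be tested. The splicing table listed 109 alternative splicing events in these genes, of 40961 events in all.

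CELF proteins bind UGU-rich and GU-rich RNA and act on splicing, mRNA decay and translation. Muscleblind proteins bind tetramers with a GC core between pyrimidines, and promote or repress an exon depending on where they bind. The families often act against each other on the same exon. In myotonic dystrophy, expanded CUG repeats in the DMPK transcript sequester muscleblind proteins, while CELF1 becomes more abundant. Celf3, Celf4, Celf5 and Celf6 are mostly expressed in the nervous system, whereas Celf1 and Celf2 are expressed widely. Muscleblind transcripts are themselves alternatively spliced, and muscleblind proteins act on some of their own exons.

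Hippocampal RNA was sequenced in 3 libraries from control mice and 3 from mice labelled L-DL KD. L-DL is the long isoform of hnRNP D-like, an RNA-binding protein encoded by Hnrnpdl. All animals were male wild-type C57BL/6 J mice injected at 8 weeks of age in the CA1 area of both hippocampi with adeno-associated virus carrying control shRNA or L-DL shRNA. Control mice are titled WT in the labels, and the other mice are given as hnRNP DL KD in one label and as hnRNP DL-/- in another. The shRNAs were driven by the H1 promoter, which is not cell type specific, and the CamkIIα promoter in the same vector drove zsGreen to mark neurons. The control virus was used at a higher titre than the L-DL virus. The labels do not say whether each library came from 1 mouse, so p-values measure the spread between libraries.

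Hnrnpdl was measured first, since it is the targeted gene. Its level was 176, 184 and 171 CPM (counts scaled to a common library total by TMM) in control and 217, 150 and 173 CPM in L-DL KD libraries, a group named here by its label. The groups overlapped, with a log2 fold change of 0.03 (SE 0.12, edgeR adjusted p = 0.898). Reads of every Hnrnpdl isoform enter this value, and the long isoform was not measured on its own. The study assessed the knockdown by immunoblotting for L-DL protein in the hippocampus and reports reduced L-DL, another measure than RNA. Libraries held between 16052529 and 17913064 counts. Replicate 1 of L-DL KD stood farther from its group than any other library, with a chi-square per degree of freedom of 25.9 and 33.7 against the other two, which gave 10.5 against each other.

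The muscleblind cassette exons are shown before their values, since the largest inclusion changes among the members were found in them. Each is a coding exon of GRCm38, read 5′ to 3′ on the transcript strand from GENCODE transcripts, and capitals mark the muscleblind tetramer in any of its 4 DNA spellings (TGCT or CGCT, and likewise TGCC or CGCC).
Mbnl1 36 nt exon: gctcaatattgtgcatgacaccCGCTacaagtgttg
Mbnl1 54 nt exon: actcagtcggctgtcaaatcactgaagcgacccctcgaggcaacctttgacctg
Mbnl2 54 nt exon: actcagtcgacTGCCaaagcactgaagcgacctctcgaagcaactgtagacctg
Mbnl1 95 nt exon: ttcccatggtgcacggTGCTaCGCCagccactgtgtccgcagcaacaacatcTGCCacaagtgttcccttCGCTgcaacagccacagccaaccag
Mbnl2 95 nt exon: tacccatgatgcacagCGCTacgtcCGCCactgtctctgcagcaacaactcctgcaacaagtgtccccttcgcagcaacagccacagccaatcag

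The 36 nt exon of Mbnl1 lies at chr3:60621423-60621458 and is exon 7 of Mbnl1-201. The 54 nt exons lie at chr3:60614683-60614736 and chr14:120395712-120395765, and the 95 nt exons at chr3:60622146-60622240 and chr14:120404638-120404732, all on the plus strand. The paralogous 54 nt exons shared 46 of 54 bases (85.2%), and the 95 nt exons shared 81 of 95 bases (85.3%). The 54 nt exon is known to contribute to nuclear localisation of the protein, and the 36 nt exon of Mbnl1 to contacts between muscleblind proteins. The 36 nt and 54 nt exons keep the reading frame, and the 95 nt exon shifts it.

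The tetramers were searched on the transcript strand only and may overlap. They matched once in the 36 nt exon, once in the Mbnl2 54 nt exon and not at all in the Mbnl1 54 nt exon. The 95 nt exon held 4 matches in Mbnl1 and 2 in Mbnl2. Among all listed cassette exons of the same length, 31.6% of 114 exons of 36 nt, 46.7% of 199 exons of 54 nt and 68.7% of 163 exons of 95 nt held a match. TGTT or TGTG, letters that fit UGU-rich RNA, occurred 2 times in the Mbnl1 36 nt exon and 2 times in the Mbnl1 95 nt exon, and not in the other exons shown. Of all listed cassette exons, 32.5% of those of 36 nt and 51.5% of those of 95 nt held TGTT or TGTG.

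Among the 9 genes, Celf3 rose and Celf4 and Celf6 fell in the L-DL KD libraries. This is 1 higher and 2 lower at an edgeR adjusted p under 0.05, where 15.6% of all tested genes were called higher and 15.0% lower, and 30.5% were called in either direction. In 5 of the 9 genes the groups did not overlap, against 47.2% of all tested genes. The median log2 fold change was -0.13 over the members and 0.01 over all tested genes.

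Celf3, a neuronal family member, was measured at 171, 165 and 169 CPM in control and 295, 289 and 322 CPM in L-DL KD libraries. Every L-DL KD library lay above every control library. The mean was 1.80-fold higher, with a log2 fold change of 0.84 (SE 0.07, 95% interval 0.69 to 1.0, edgeR adjusted p = 0.000197).

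Celf4, a brain-enriched member that binds the mRNAs of many synaptic proteins, was measured at 349, 329 and 358 CPM in control and 240, 218 and 231 CPM in L-DL KD libraries. The groups did not overlap. Celf4 fell, with a log2 fold change of -0.59 (SE 0.07, 95% interval -0.74 to -0.43, edgeR adjusted p = 0.000749). Celf3 and Celf4 therefore moved in opposite directions, and the log2 ratio of Celf3 to Celf4 CPM went from -1.04 ± 0.04 to 0.39 ± 0.09 (SD, n = 3 each). The exact two-sided permutation test gave p = 0.1, the smallest that 3 against 3 libraries allow.

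Celf6 was the least abundant of the CELF genes, at 18.4, 22.4 and 16.7 CPM in control and 12.2, 13.5 and 14.3 CPM in L-DL KD libraries. It fell, with a log2 fold change of -0.52 (SE 0.14, edgeR adjusted p = 0.0267). This call was lost without control replicate 1 (edgeR adjusted p = 0.0649), without control replicate 2 (0.0971) or without L-DL KD replicate 2 (0.0710).

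**Figure D1:**
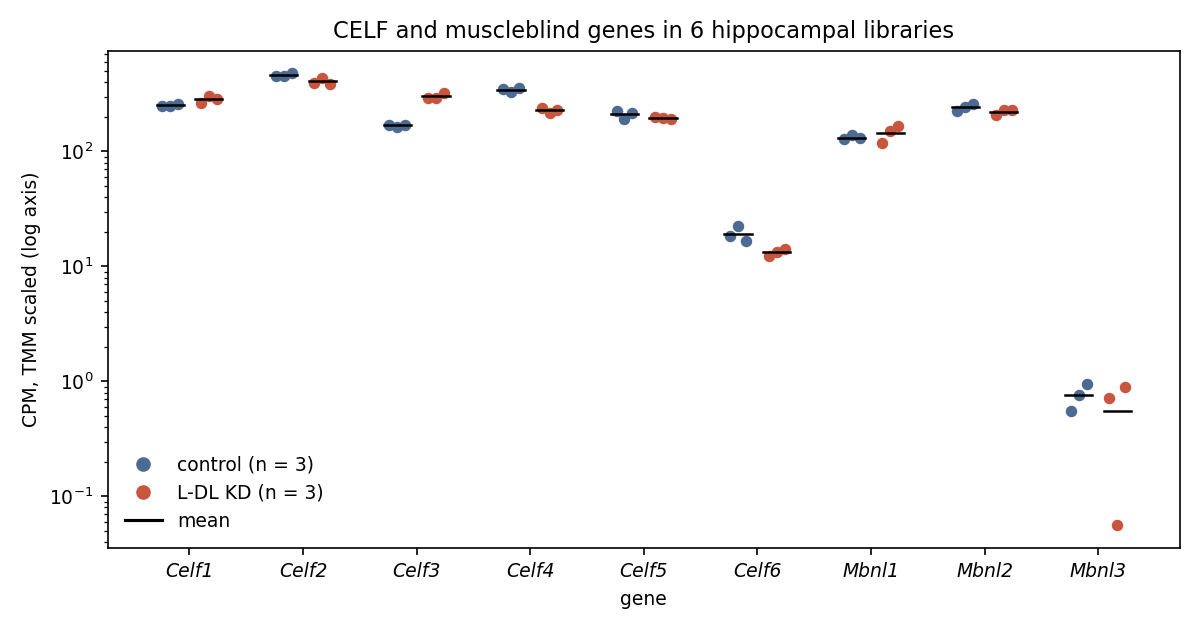
CPM of the 9 genes on a log axis, 1 point per library and a black line at the group mean (3 control and 3 L-DL KD libraries). The groups lie apart for Celf3 (165 to 171 against 289 to 322 CPM) and Celf4 (329 to 358 against 218 to 240 CPM), and Mbnl3 lies below 1 CPM in every library.

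Celf1, which promotes decay of mRNAs with GU-rich elements, was measured at 250, 248 and 260 CPM in control and 262, 305 and 283 CPM in L-DL KD libraries. These values lay apart by a small margin, and the gene was not called (log2 fold change 0.17, SE 0.07, edgeR adjusted p = 0.126). Without L-DL KD replicate 1 it was called higher (log2 fold change 0.22, edgeR adjusted p = 0.0297).

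Celf2, the member with the highest counts, was measured at 454, 455 and 478 CPM in control and 395, 437 and 387 CPM in L-DL KD libraries. The groups did not overlap, but the gene was not called (log2 fold change -0.19, SE 0.07, edgeR adjusted p = 0.0847). Celf5 was measured at 224, 192 and 218 CPM in control and 197, 195 and 190 CPM in L-DL KD libraries. Its groups overlapped (log2 fold change -0.12, SE 0.07, edgeR adjusted p = 0.253).

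None of the 3 muscleblind genes was called at the level of the whole gene. Mbnl1 was measured at 127, 139 and 130 CPM in control and 119, 150 and 165 CPM in L-DL KD libraries. Replicate 1 of L-DL KD was its lowest library (log2 fold change 0.13, SE 0.12, edgeR adjusted p = 0.442), and without it Mbnl1 was called higher (log2 fold change 0.26, edgeR adjusted p = 0.0293). Without L-DL KD replicate 3 the log2 fold change of Mbnl1 was 0.03 (edgeR adjusted p = 0.882). Mbnl2, the main muscleblind protein of the brain, was measured at 226, 245 and 258 CPM in control and 208, 229 and 229 CPM in L-DL KD libraries. Its groups overlapped, with a log2 fold change of -0.13 (SE 0.08, 95% interval -0.31 to 0.04, edgeR adjusted p = 0.230).

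Mbnl3 was close to the limit of detection. Control libraries held 9, 13 and 15 counts of it, and L-DL KD libraries 13, 1 and 15. Its interval of -2.08 to 1.18 on the log2 scale is too wide to show a change of the size seen in Celf3.

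Reads of Celf2, Celf3, Celf5 and Mbnl2 may include reads of an antisense neighbour, because the strand setting of the counting is not given in the sources used here. The annotated exons share 1961 nt with Gm26565 for Celf2, 543 nt with Gm16105 for Celf5, 86 nt with Gm26679 for Mbnl2 and 74 nt with Riiad1 for Celf3.

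To compare levels between genes, CPM was divided by the length of all annotated exons of the gene in kilobases (CPM per kb). In control libraries Celf4 was highest at 40.2 ± 1.7 CPM per kb (SD, n = 3). Celf5, Celf3 and Celf1 followed at 31.7 ± 2.5, 30.7 ± 0.57 and 29.9 ± 0.80 CPM per kb, and their ranges overlapped. Mbnl2 (20.3 ± 1.3) and Celf2 (17.9 ± 0.52) came next, then Mbnl1 (7.06 ± 0.35), Celf6 (5.29 ± 0.81) and Mbnl3 (0.0866 ± 0.0228 CPM per kb). From Mbnl2 onwards the ranges of neighbouring genes did not overlap. Celf2 has 25.884 kb of annotated exons, which lowers its value per kb.

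The order differed in the L-DL KD libraries. Celf3 came first at 55.2 ± 3.3 CPM per kb, Celf1 followed at 33.6 ± 2.5 and Celf5 next at 29.1 ± 0.59. Celf4 came after them at 26.8 ± 1.3 CPM per kb, and its highest library (28.0) lay below the lowest library of Celf5 (28.4). The order from Mbnl2 to Mbnl3 was the same as in control libraries.

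Celf3 accounted for 19.7 ± 0.30% of the summed CELF level per kb in control and 33.6 ± 1.6% in L-DL KD libraries. The share of Celf4 went from 25.8 ± 0.33% to 16.3 ± 0.95%, and that of Celf5 from 20.3 ± 1.1% to 17.7 ± 0.66%. Shares are parts of the same total, so a higher share of Celf3 lowers the others, and Celf5 itself was not called. The summed level was 156 ± 4.7 CPM per kb in control and 164 ± 2.8 CPM per kb in L-DL KD libraries, a smaller difference than that of Celf3 alone. For each of these 4 values the groups did not overlap, and the exact permutation test gave p = 0.1. The summed muscleblind level was 27.4 ± 1.5 and 26.3 ± 2.2 CPM per kb, with overlapping groups (exact permutation p = 0.6).

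**Figure D2:**
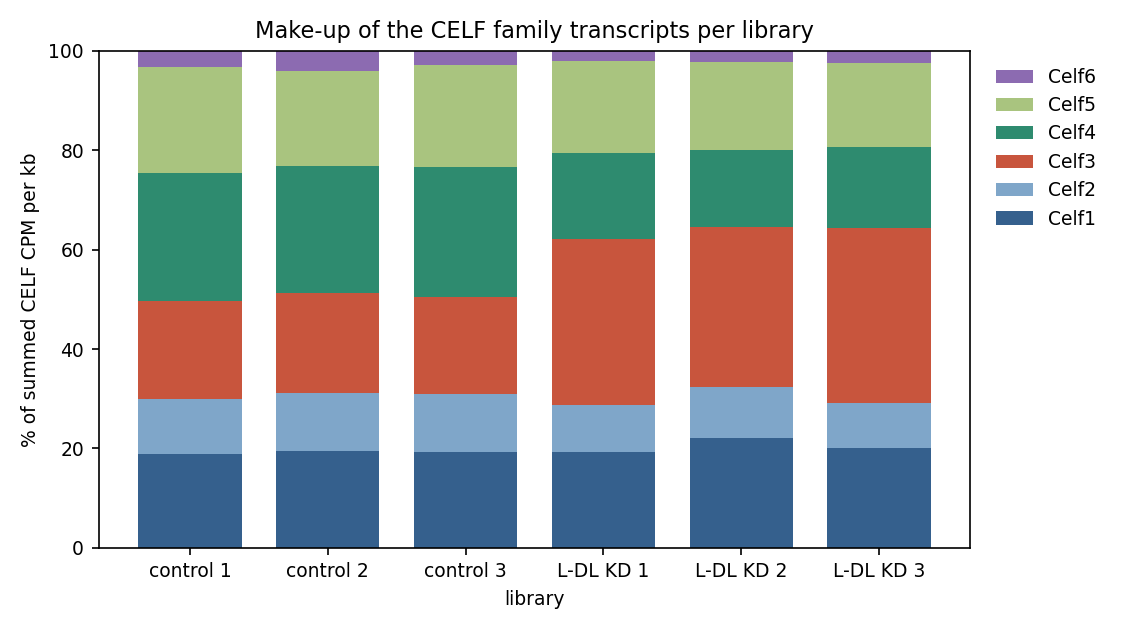
Stacked bars giving the share of each CELF gene in the summed CELF level (percent of CPM per kb), 1 bar per library. The Celf3 segment covers about 19.7% of each control bar and about 33.6% of each L-DL KD bar on average, while the Celf4 segment covers 25.8% and 16.3%.

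The profiles of the 6 libraries were also compared between genes by Pearson's r of log2 CPM, which mostly follows the group difference and is given as a description. The members most alike were Celf4 and Celf6 (r = 0.80), and the least alike were Celf3 and Celf4 (r = -0.97). The tested gene most like Celf3 was Mapkapk2 (r = 0.999), and the one most like Celf4 was Sms (r = 0.999).

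Markers of cell types were also compared between the groups, where 15.6% of all tested genes were called higher and 15.0% lower. All 10 neuron markers fell, and their summed level ranged from 8994 to 9496 CPM in control and from 4967 to 5890 CPM in L-DL KD libraries. All 8 microglia markers rose, from a summed 1157 to 1443 CPM in control to 2459 to 3163 CPM in L-DL KD libraries. Of the 8 astrocyte markers 2 rose and 3 fell, with summed levels of 7870 to 8017 and 6162 to 7250 CPM. Of the 8 oligodendrocyte markers 2 rose, with summed levels of 7930 to 8474 and 6891 to 10074 CPM. Of the 7 endothelial markers 4 rose, with summed levels of 296 to 318 and 366 to 440 CPM. Of the 8 T and plasma cell markers only Ptprc rose, and of the 6 genes that mark hippocampal fields Wfs1 and Amigo2 fell. No marker was at 0 in all libraries.

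In bulk tissue, fewer cells of a type and less RNA per cell cannot be told apart. The part of these marker shifts in the changes of the members was not tested. Celf4 and Celf6 fell together with the neuron markers, with a smaller log2 change than the neuron median of -0.96, whereas Celf3 rose while those markers fell.

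The Elav-like proteins are RNA-binding relatives of the CELF family. The neuronal Elavl2, Elavl3 and Elavl4 fell, where 15.0% of all tested genes were called lower. Elavl1, which is expressed in most cells, was not called. Elavl2 was measured at 56.5, 58.1 and 70.7 CPM in control and 28.1, 25.2 and 23.2 CPM in L-DL KD libraries (log2 fold change -1.28, SE 0.12, edgeR adjusted p = 0.000290). Elavl4 had a log2 fold change of -1.16 (SE 0.13) and Elavl3 of -0.26 (SE 0.08).

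Of 13 genes tied to CELF and muscleblind function in myotonic dystrophy or by phosphorylation and shared RNA targets, 2 rose and 3 fell, with a median log2 fold change of 0.01, where 15.6% of all tested genes were called higher and 15.0% lower. Prkca, the protein kinase C isoform that can phosphorylate and stabilise CELF1, was measured at 314, 304 and 292 CPM in control and 140, 137 and 131 CPM in L-DL KD libraries (log2 fold change -1.16, SE 0.06, edgeR adjusted p = 8.1e-05). Gsk3b, another kinase gene of this list, also fell (log2 fold change -0.33, SE 0.07), as did Akt1 (-0.24, SE 0.08, edgeR adjusted p = 0.0474). Cdk4, which acts with cyclin D3 on CELF1, rose (log2 fold change 0.42, SE 0.08), as did Ccnd3, the gene of cyclin D3 (0.32, SE 0.09). Dmpk, whose repeat expansion causes myotonic dystrophy, was not called (log2 fold change -0.09, SE 0.13).

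**Figure D3:**
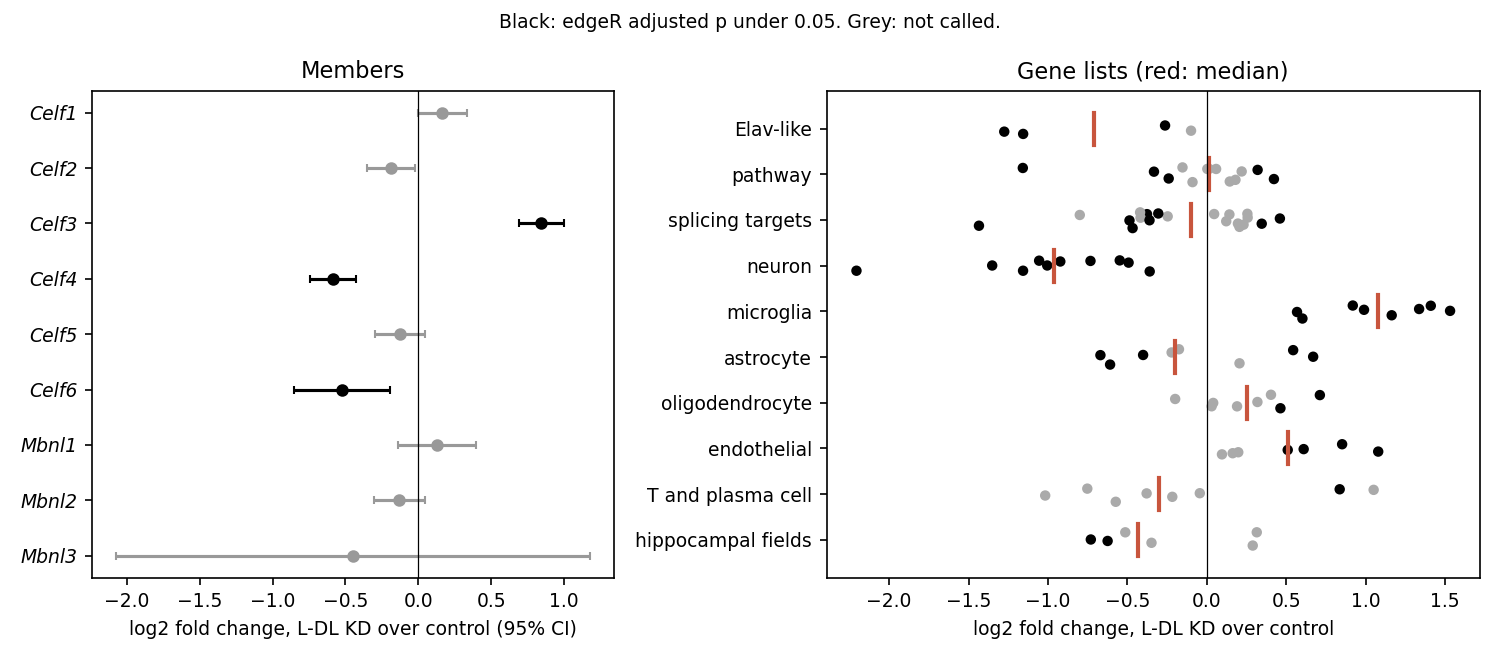
Log2 fold change of L-DL KD over control libraries, for the 9 members with 95% intervals (left) and for single genes of each list with the list median in red (right); black marks an edgeR adjusted p under 0.05. Celf3 (0.84) stands to the right and Celf4 (-0.59) and Celf6 (-0.52) to the left, neuron markers have a median of -0.96 and microglia markers of 1.08.

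Alternative splicing within the members was then compared. Percent spliced in (PSI) is the fraction of the transcript that includes a segment, computed in each library from junction counts divided by the effective length of each form. Of the 109 listed events, 78 in 8 genes had enough junction counts to be tested, and the event of Mbnl3 did not. None of the 78 passed an edgeR adjusted p under 0.05, which 0.255% of all 18829 tested events passed, and limma called none either, with 6 at an unadjusted p under 0.05. At an unadjusted edgeR p under 0.001 there was 1 event, against 0.977% of all events. At an unadjusted p under 0.05 there were 9 (11.5%), against 13.3% of all events, so the share of the members was near the background. The groups did not overlap in 16 of the 78 events, against 18.4% of all tested events. PSI values below are therefore given as measured.

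The Mbnl2 54 nt exon had the smallest p of all member events. Its PSI was 0.450, 0.466 and 0.439 in control and 0.259, 0.230 and 0.156 in L-DL KD libraries. Every L-DL KD library lay below every control library, and the 95% Wilson intervals of single libraries, which cover counting error only, spanned 0.378 to 0.525 in control and 0.115 to 0.315 in L-DL KD libraries. The mean difference was -0.24, and the odds of inclusion changed by -1.59 on the log2 scale (SE 0.34, edgeR adjusted p = 0.0802). Between 190 and 275 junction counts per library lay behind these values.

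The Mbnl1 36 nt exon was included at a PSI of 0.874, 0.891 and 0.890 in control and 0.713, 0.655 and 0.655 in L-DL KD libraries, from 107 to 127 junction counts per library. The groups lay apart by more than their own spread (mean difference -0.21, log2 odds -1.88, SE 0.44, edgeR adjusted p = 0.102). A second listed event of the same exon, with other flanking exons and a mean of 39.7 counts, had overlapping groups (mean difference -0.18, edgeR adjusted p = 0.609).

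The Mbnl1 54 nt exon, the paralogue of the Mbnl2 exon, had a lower PSI than that exon in control libraries, at 0.191, 0.235 and 0.250. It was 0.116, 0.192 and 0.107 in L-DL KD libraries, and the groups overlapped by 1 library on each side (mean difference -0.09, edgeR adjusted p = 0.423). The 95 nt exons did not differ beyond their spread. In Mbnl1 the PSI of the 95 nt exon was 0.988, 0.915 and 0.969 in control and 0.932, 0.976 and 1.0 in L-DL KD libraries (edgeR adjusted p = 0.915). In Mbnl2 it was 0.406, 0.337 and 0.386 in control and 0.410, 0.292 and 0.309 in L-DL KD libraries (edgeR adjusted p = 0.818).

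**Figure D4:**
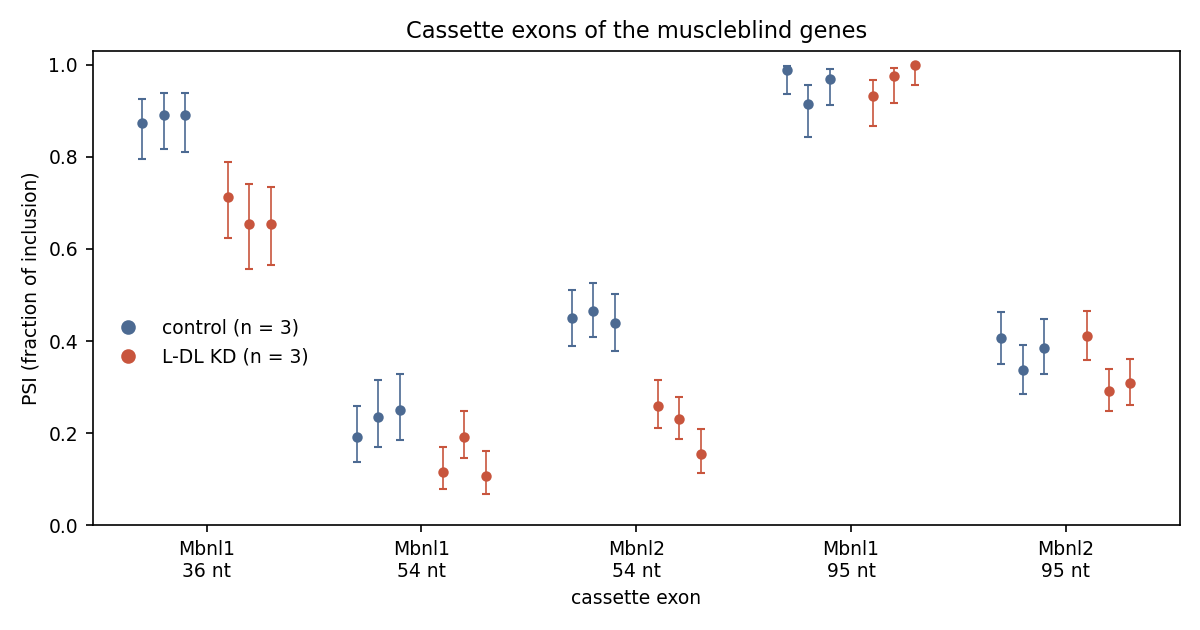
PSI of 5 muscleblind cassette exons, 1 point per library with 95% Wilson intervals for counting error (blue control, red L-DL KD). The groups lie apart for the Mbnl1 36 nt exon (0.874 to 0.891 against 0.655 to 0.713) and the Mbnl2 54 nt exon (0.439 to 0.466 against 0.156 to 0.259), and overlap for the other 3.

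A coding exon of 111 nt in Mbnl1, exon 2 of Mbnl1-210 at chr3:60596719-60596829, was used little in both groups. Its PSI was 0.062, 0.062 and 0.105 in control and 0.029, 0.037 and 0.024 in L-DL KD libraries (edgeR adjusted p = 0.272). The Mbnl1 segment with most junction counts, a 105 nt extension at a 3′ splice site, had PSI values of 0.884 to 1.0 in control and 0.902 to 0.954 in L-DL KD libraries. In all, 10 of the 12 tested Mbnl1 events had a lower mean PSI in L-DL KD libraries, against 52.7% of all tested events. Several of the 12 share an exon or junctions, and 2 of them had an unadjusted p under 0.05. The Mbnl2 exon with most counts, 619 nt long and holding the start of the coding sequence, was included in nearly all transcripts (PSI of 0.987 or more) and was not tested.

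In Celf1, 11 events were tested. An intron of 88 nt at chr2:91013403-91013490, which lies outside the annotated coding sequence, had a PSI of 0.438, 0.441 and 0.534 in control and 0.661, 0.592 and 0.700 in L-DL KD libraries. Its groups did not overlap (mean difference 0.18, log2 odds 1.06, SE 0.38, edgeR adjusted p = 0.273). A longer retained segment of 3163 nt from the same start had the most counts in the gene and differed by 0.01 (edgeR adjusted p = 0.939).

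In Celf2, 21 events were tested. An 80 nt coding exon, exon 8 of Celf2-201 at chr2:6607882-6607961, had a PSI of 0.962, 1.0 and 0.968 in control and 0.954, 0.886 and 0.940 in L-DL KD libraries (edgeR adjusted p = 0.316). A 3′ splice site event that ends at the same position gave 0.919, 1.0 and 0.933 in control and 0.906, 0.782 and 0.884 in L-DL KD libraries, so these are not independent observations. Another event set a 36 nt exon at chr2:6962379-6962414 against the 197 nt exon 4 of Celf2-201. The form with the 36 nt exon was rare in this event (edgeR adjusted p = 0.322). Its PSI was 0.052, 0.052 and 0.042 in control and 0.007, 0.005 and 0.036 in L-DL KD libraries. Between 1 and 9 junction counts per library came from that form. The most counted cassette event of the same 36 nt exon, exon 3 of Celf2-201, had a PSI of 0.982 or more in every library. That cassette event was not tested, and the PSI of the first event is not the whole use of this exon.

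In Celf3, the member whose level rose, 20 events were tested and 1 had an unadjusted p under 0.05. An 84 nt extension at a 3′ splice site at chr3:94487703-94487786, within coding sequence, had a PSI of 0.359, 0.411 and 0.361 in control and 0.432, 0.492 and 0.509 in L-DL KD libraries. The groups did not overlap (mean difference 0.10, log2 odds 0.60, SE 0.26, edgeR adjusted p = 0.364). A second listed event of the same 84 nt segment gave 0.971, 0.973 and 0.845 in control and 0.957, 0.926 and 0.987 in L-DL KD libraries, with overlapping groups (edgeR adjusted p = 0.823). The Celf3 cassette exon with most counts, 144 nt long, was included almost always, with PSI of 0.990 or more in every library.

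Celf4 had 8 tested events and Celf5 had 2, and none of them had an unadjusted edgeR p under 0.05 or groups apart. Their most counted cassette exons, of 144 nt in Celf4 and 81 nt in Celf5, had PSI values of 0.989 or more in every library. The fall of Celf4 was thus measured at the level of the gene, with no listed event past the unadjusted threshold. In Celf6, the 150 nt coding exon 8 of Celf6-201 had a PSI of 1.0 in all control libraries and 0.769, 0.778 and 1.0 in L-DL KD libraries (edgeR adjusted p = 0.206). The groups overlapped, and 30 to 84 junction counts per library lay behind these values.

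Genes whose splicing is known to respond to CELF or muscleblind proteins were described last. Of 20 listed target genes, 2 rose (Nfix, log2 fold change 0.46, SE 0.09, and Csnk1d, 0.35, SE 0.08) and 6 fell, where 30.5% of all tested genes were called. The largest falls were those of Atp2a1 (log2 fold change -1.43, SE 0.44, at 1.40 and 0.516 CPM) and Ndrg4 (-0.49, SE 0.08). Of the 20 genes, 19 had listed events, and 107 events in 16 genes were tested. None passed an edgeR adjusted p under 0.05. An unadjusted p under 0.001 was reached by 5 events (4.67%, against 0.977% of all events), and under 0.05 by 23 (21.5%, against 13.3%). Leaving out 1 library left 0 to 2 events with an unadjusted p under 0.001, and none without L-DL KD position 2 or 3 or control position 1 of the splicing table, whose libraries carry no numbers. With limma none of the 107 reached an unadjusted p under 0.001 and 20 reached one under 0.05. Events of 1 gene share reads and are not replicates.

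The 54 nt exon 13 of App-201, the amyloid precursor protein transcript, had a PSI of 0.942, 0.955 and 0.938 in control and 0.903, 0.887 and 0.843 in L-DL KD libraries (log2 odds -1.23, SE 0.27, edgeR adjusted p = 0.0838). At least 2057 junction counts per library lay behind it, the most of the 3 target exons named here. The groups did not overlap, but the difference in PSI was the smallest of the 3, at -0.07.

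Grin1, the obligatory subunit of NMDA receptors, had 2 exons named by the same rule, both with lower PSI in L-DL KD libraries. Its 63 nt exon, exon 4 of Grin1-203, had a PSI of 0.114, 0.167 and 0.130 in control and 0.061, 0.053 and 0.032 in L-DL KD libraries (edgeR adjusted p = 0.101). Its 111 nt exon, exon 19 of Grin1-201, had a PSI of 0.523, 0.551 and 0.554 in control and 0.364, 0.384 and 0.339 in L-DL KD libraries (edgeR adjusted p = 0.106).

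**Figure D5:**
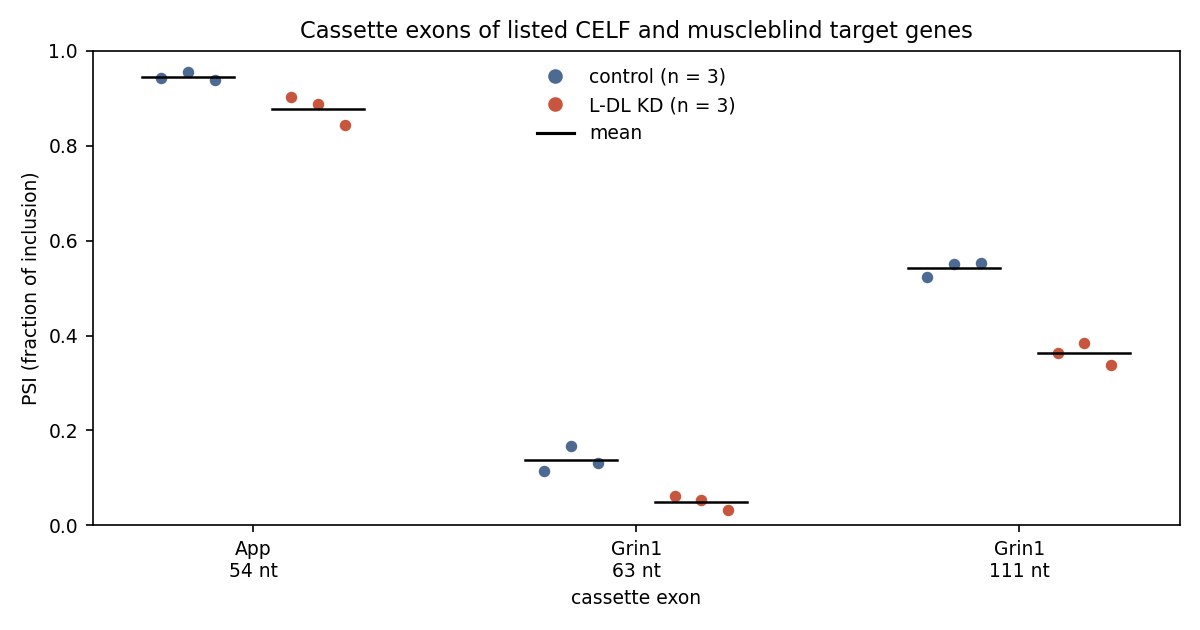
PSI of 1 App exon and 2 Grin1 exons whose groups do not overlap, 1 point per library and a black line at the mean. All 3 have a lower PSI in L-DL KD libraries, and the difference in PSI is largest for the 111 nt exon of Grin1 (0.523 to 0.554 against 0.339 to 0.384).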

How the data were processed

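Hippocampal RNA of control and L-DL KD mice, with 3 libraries in each group, was sequenced in 150 nt pairs. For each Ensembl gene the authors deposited unnormalized counts of reads. They also deposited rMATS junction counts, with the effective length in nt of each form. The submitters' processing notes name HISAT2 (version 2.1.0), HTSeq (version 0.6.1) and Bowtie (version 1.1.2), and the reads were aligned to GRCm38. The strand setting is not given in the sources used here. The authors' PSI differences, p-values and FDR were not used.

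After TMM scaling, the quasi-likelihood test of edgeR (version 4.0.16, R version 4.3.3) was run on genes that reached 10 counts in 3 or more libraries, at a Benjamini-Hochberg adjusted p of 0.05. The same test was run on inclusion and skipping counts, with an effect for each library, where an event averaged 20 or more counts and each form averaged 1 or more. Tables were made in Python (version 3.11.15) with pandas (version 2.3.3) and scipy (version 1.17.1). Both fits were also run on simulated data with known changes. The simulation used the same spread setting for every library, whereas the real libraries were uneven, so it does not gauge error in these data. Alternatives used limma (version 3.58.1, pseudocount 0.5) and DESeq2 (version 1.42.0), other scalings and filters, and left out each library in turn.

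The 2 groups of the splicing table carry no names in the file. They were assigned from the direction of the PSI difference in the study's methods. Across 6733 genes, the junction count ratio of the groups followed the gene fold change with r = 0.95 (across genes, which are not independent). Replicates in that table carry no numbers. Totals were 6760349 to 7939931 junction counts per library.

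Members and gene lists were chosen with earlier results of these data known. Named were all members, the called genes of largest change in each list, member events with an unadjusted p under 0.05, the most counted segment of each member, all 36, 54, 64 and 95 nt cassette exons of Mbnl1 and Mbnl2, and the 6 target exons with smallest p whose groups lay apart. Of these 6, 3 are not reported here. Protein sequences were not used here.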

Additional observations from a re-analysis of the deposited data

How the results depend on the processing

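Celf3 rose and Celf4 fell under each of the 11 expression alternatives, which were DESeq2, library size scaling, 2 other count filters, the replicate block and leaving out each of the 6 libraries. Leaving out 1 library gave 1 to 3 members called higher and 1 to 2 called lower, against 1 and 2 with all libraries, and 1770 to 3236 genes called higher and 1676 to 3241 lower over all genes. The log2 fold change of Mbnl3 ranged from -0.95 to 0.10 and reversed without L-DL KD replicate 2, and that of Hnrnpdl ranged from -0.13 to 0.15 and reversed without control replicate 3 or L-DL KD replicate 1. Same-numbered libraries did not deviate together (r = 0.06, 0.16 and -0.14), so the number was not taken as a pairing; the replicate block called 2311 genes higher and 2324 lower and changed no call of a member. No paired analysis was possible for splicing because its replicates carry no numbers, and positions below are places in the list of 3 counts.

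Under library size scaling 5 target genes were called higher, and under it or DESeq2 1 hippocampal field gene was called higher, against 2 and 0. With limma, 0 member events, 0 target events and 0 of all events were called where edgeR gave 1, 5 (both at an unadjusted p under 0.001) and 48 (adjusted). With 1 row per segment, 2 member events had an unadjusted p under 0.001. Leaving out 1 library gave 0 to 1 such member events, 0 to 2 such target events (an alternative chosen after seeing the data, with 0 to 1 at an adjusted p under 0.05, the 1 without L-DL KD position 1), and over all events 74 to 152 at an unadjusted p under 0.001 and 0 to 52 at an adjusted p under 0.05. The log2 odds change ranged from -0.066 to 0.31 for the 3163 nt Celf1 segment (reversed without control position 2), from -0.014 to 0.35 for the 1366 nt Celf2 segment (reversed without L-DL KD position 1) and from -0.54 to 1.76 for the Mbnl1 95 nt exon (reversed without control position 2 or L-DL KD position 3). The cause was not tested. The 190 to 275 junction counts per library of the Mbnl2 54 nt exon limit the precision of its PSI to intervals such as 0.378 to 0.501 at control position 3.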
